A study of Mus musculus with 6 samples.

Results

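Lysosomes degrade what a cell has taken up, and the 42 genes described here encode the parts of that machinery other than the cathepsins. They comprise 11 genes grouped as glycosidases, 4 sulfatases, 7 lipid enzymes and lipid-binding cofactors, and 4 genes for a peptidase, acid phosphatases and progranulin. The rest are 6 lysosomal membrane proteins, 8 parts of the V-ATPase proton pump, and the transcription factors Tfeb and Tfe3. The list was written by hand from gene function, and all 42 symbols were found in the counts, among 56748 Ensembl IDs of which 21849 were tested. The study asked how Nfkb2, which encodes the p100 precursor of the non-canonical NF-κB pathway, shapes gene expression in dendritic cells. Bone marrow-derived dendritic cells (BMDCs) were grown from C57BL/6 WT mice and from mice lacking Nfkb2 in the whole body (Nfkb2-/-), with 3 libraries of polyadenylated RNA per genotype and 6 in all. Bone marrow cells of both genotypes received 20 ng/mL GM-CSF for 5 days and then GM-CSF with 10 ng/mL IL-4 for 4 days, 9 days in all, and were not stimulated further. The labels give neither the age of the mice nor whether each library came from a separate animal, so p-values measure the spread between these libraries. The RNA came from the whole culture, in which fewer cells of a type and less RNA per cell cannot be told apart.

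Lysosomal hydrolases are made in the endoplasmic reticulum, tagged with mannose phosphate or bound to carriers such as the Scarb2 protein, and delivered to vesicles that the V-ATPase acidifies. Tfeb and Tfe3 enter the nucleus when the kinase mTOR is inactive at the lysosomal surface, and there they bind E-boxes with the core CACGTG in the promoters of lysosomal genes. In dendritic cells, lysosomal proteolysis prepares antigen for presentation and is held lower than in macrophages, and acidification of the lysosome is regulated as the cells mature.

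Because the transcription factors of this programme recognise a known sequence, the promoters of the genes are shown first. A promoter window, from 250 bases before to 50 bases after the transcription start, was found in RefSeq sequence (GRCm38.p6) for 35 of the 42 genes, and the genes without one were Asah1, Atp6v1h, Aga, Atp6v1c1, Atp6v0d2, Galns and Atp6v1b2. The motif CACGTG, the same on both strands, occurred in a window of 9 of these 35 genes (25.7%), against 8.09% of the 27025 genes with a window. TCACGTGA, a longer palindrome that contains CACGTG, occurred in 4 of them (11.4%), against 1.12%. The excerpts below run 5′ to 3′ on the strand of the gene, with CACGTG in capitals. Each holds 20 bases on either side of the CACGTG within the TCACGTGA, where there is one, or else of the first CACGTG of the window. The 4 genes with TCACGTGA come first, and Atp6v0d1, Atp6v1a, Gla and Mcoln1 are shown because they carry the longer match.
Atp6v0d1 (V-ATPase, minus strand, chr8:105566042-105566087): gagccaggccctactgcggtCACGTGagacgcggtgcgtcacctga
Atp6v1a (V-ATPase, minus strand, chr16:44139365-44139410): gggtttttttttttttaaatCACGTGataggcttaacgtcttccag
Gla (glycosidase, minus strand, chrX:134601207-134601252): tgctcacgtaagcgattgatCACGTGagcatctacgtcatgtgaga
Mcoln1 (membrane channel, plus strand, chr8:3500454-3500499): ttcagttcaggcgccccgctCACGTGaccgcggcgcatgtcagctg
Lamp1 and Glb1 are shown because, as given below, all their Nfkb2-/- libraries lay below all WT libraries.
Lamp1 (membrane protein, plus strand, chr8:13159080-13159125): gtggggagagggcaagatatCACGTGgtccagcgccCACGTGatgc
Glb1 (glycosidase, plus strand, chr9:114401010-114401055): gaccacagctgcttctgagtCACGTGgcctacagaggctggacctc
The other 3 genes with CACGTG were Gaa, Naglu and Sgsh.
Gaa (glycosidase, plus strand, chr11:119267803-119267848): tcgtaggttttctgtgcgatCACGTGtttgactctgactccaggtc
Naglu (glycosidase, plus strand, chr11:101070001-101070046): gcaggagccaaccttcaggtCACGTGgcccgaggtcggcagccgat
Sgsh (sulfatase, minus strand, chr11:119355514-119355559): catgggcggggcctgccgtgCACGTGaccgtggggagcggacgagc

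In the Mcoln1 and Gla windows a further CACGTG lay outside the excerpt, and for Lamp1 the window held 4 in all, of which 2 are in the excerpt. Letters of the NF-κB consensus, searched on both strands, were found in the windows of 6 of the 35 genes (17.1%), namely Grn, Lamp1, Neu1, Psap, Scarb2 and Tfe3, against 9.55% of all genes with a window. A match describes the letters in the window only. Binding at these promoters was not measured in these libraries.

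Total counts ranged from 29863927 to 55623068 per library, so that 1 count corresponded to 0.0187 to 0.0344 CPM (counts scaled to library size with edgeR's TMM factors), and every lysosomal gene had a mean of at least 7.14 CPM. Counting error came to between 0.298% and 10.2% of the level of a gene, and for some genes with tight libraries it was as large as the spread between them, as for Gusb (1.75% beside a coefficient of variation of 1.73% in WT), Glb1 (3.11% beside 3.08%), Smpd1 (5.61% beside 5.30%) and, in Nfkb2-/- libraries, Sgsh (6.39% beside 6.70%). Nfkb2 itself measured 215, 154 and 355 CPM in WT replicates 1, 2 and 3, whereas Nfkb2-/- replicates 1, 2 and 3 had 44.8, 32.3 and 32.6 CPM (log2 fold change -2.72 with SE, its standard error, 0.33, adjusted p = 0.0307, edgeR). Nfkb2-/- replicate 1 had counts on 47952 genes and the other libraries on 27692 to 33841. All 12 dendritic cell markers were detected, and their summed level was 8142, 5954 and 11818 CPM in WT replicates 1, 2 and 3 and 7452 to 8066 CPM in Nfkb2-/- libraries. Of the 12 estimates 6 were above and 6 below 0, with 3 markers higher without overlap (25%, against 12.7% of all genes) and 3 lower (25%, against 12%). Itgax, which encodes CD11c, rose from 123 to 277 CPM in WT to 716 to 769 CPM in Nfkb2-/- libraries (log2 fold change 1.99, adjusted p = 0.0414). Fscn1, an actin-bundling protein of mature dendritic cells, had an estimate of -1.49 (adjusted p = 0.0902, edgeR, and 0.000652, DESeq2), and Dpp4, a surface peptidase, one of 0.81 (adjusted p = 0.135, edgeR, and 0.0316, DESeq2). Cd83, Ccr7 and Zbtb46, chosen after their values were seen, had estimates of -1.12, -0.97 and -0.54 (adjusted p = 0.150, 0.235 and 0.192, edgeR). Ciita, also chosen in that way, had one of 0.50 (adjusted p = 0.254, edgeR). Ccr7 overlapped between the genotypes, and its estimate was -0.51 without WT replicate 3, whereas Cd83, Zbtb46 and Ciita did not overlap.

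WT replicate 3 stood apart in cell type markers as well as in the lysosomal genes. It was the highest of the 6 libraries for 7 of the 12 dendritic cell markers. In all 11 of 11 macrophage markers it was under 0.5 times each of the other WT libraries, and their summed level was 1088, 1245 and 182 CPM in WT replicates 1, 2 and 3 and 644, 724 and 871 CPM in the Nfkb2-/- replicates. Their estimates were above 0 for 4 and below 0 for 7, with 1 lower without overlap (9.09%, against 12% of all genes). With edgeR 0 were called, and DESeq2 called 1 lower, Apoe (9.09%, against 8.14%). Apoe measured 82.3, 56.5 and 3.68 CPM in WT and 2.25, 0.725 and 0.898 CPM in Nfkb2-/- libraries (log2 fold change -5.21, adjusted p = 0.0770, edgeR). The median estimate of the 11 was -0.12, and it was -0.61 without WT replicate 3. For markers of osteoclasts and multinucleated cells, 6 of 8 tested, the sums were 142, 179 and 75.3 CPM in WT and 216, 237 and 230 CPM in Nfkb2-/- libraries. Nfatc1 was the largest part of the sum in every library. Of the 6 estimates 5 were above 0 and 1 below, with 4 higher without overlap (66.7%, against 12.7% of all genes). Ocstamp, which encodes a membrane protein of cell fusion, was called higher (log2 fold change 3.58, adjusted p = 0.0307, edgeR), at no more than 7.33 CPM in any library. Mmp9 (0.07) and Ctsk (-0.29) overlapped between the genotypes. Neutrophil markers, 8 of 9 tested, summed to 84.1 to 231 CPM in WT and 117 to 126 CPM in Nfkb2-/- libraries, with S100a8 the largest part of the sum except in WT replicate 1, where Ngp was. Estimates were below 0 for 7 of these 8, and DESeq2 called Ngp (-1.81) and Ltf (-1.60), both granule proteins, lower (25%, against 8.14% of all genes). All 8 overlapped between the genotypes, so 0 were lower without overlap (against 12% of all genes). WT replicate 3, at 18.0 CPM for Ngp and 3.89 CPM for Ltf, lay within the Nfkb2-/- range of 13.1 to 21.6 CPM and 3.57 to 5.37 CPM. With edgeR 0 were called, and 3 were lower at an unadjusted p under 0.05 (37.5%, against 17.1%). Mast cell and basophil markers, 5 of 8 tested, summed to 8.83 to 14.5 CPM in WT and 2.90 to 3.93 CPM in Nfkb2-/- libraries, with Cpa3, a mast cell carboxypeptidase, called lower (log2 fold change -1.84, adjusted p = 0.0413). Lymphocyte markers, 4 of 6 tested, summed to 0.498 to 0.757 CPM in WT and 0.449 to 4.49 CPM in Nfkb2-/- libraries, and Cd3e was at 0 in WT replicate 2. The markers not tested, for want of 50 counts over the 6 libraries, were Ms4a1, Ncr1, Fcer1a, Tpsb2, Mcpt4, Elane, Calcr and Oscar. The part of these cell types in the lysosomal values below was not tested.

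Measured per length of exon, the lysosomal genes spanned nearly 3 orders of magnitude within one culture. On the RPKM scale (TMM-normalized CPM per kilobase of exon), Psap, the precursor of the saposins that present sphingolipids to their hydrolases, was highest, with a mean level of 985 in WT and 1141 in Nfkb2-/- BMDCs. Lamp1, the main glycoprotein of the lysosomal membrane, followed with a level of 247 and 203 RPKM, and Gm2a, the cofactor that lifts GM2 ganglioside out of membranes for Hexa, with 103 and 201 RPKM. The lowest was Sgsh, a sulfatase of heparan sulfate breakdown, at a level of 1.79 RPKM in WT and 1.51 RPKM in Nfkb2-/- BMDCs. Together the 42 genes took 0.534% to 1.10% of the counts of a library. Within this summed level WT replicate 3 was lowest: it measured 6025 CPM, against 10040 and 10580 CPM in the other WT libraries, and the Nfkb2-/- libraries measured 8314, 10363 and 10069 CPM. Psap alone took a large part of the sum, with 3104, 3790 and 1218 CPM in WT replicates 1, 2 and 3 and 2610, 3355 and 3431 CPM in the Nfkb2-/- replicates.

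**Figure D1:**
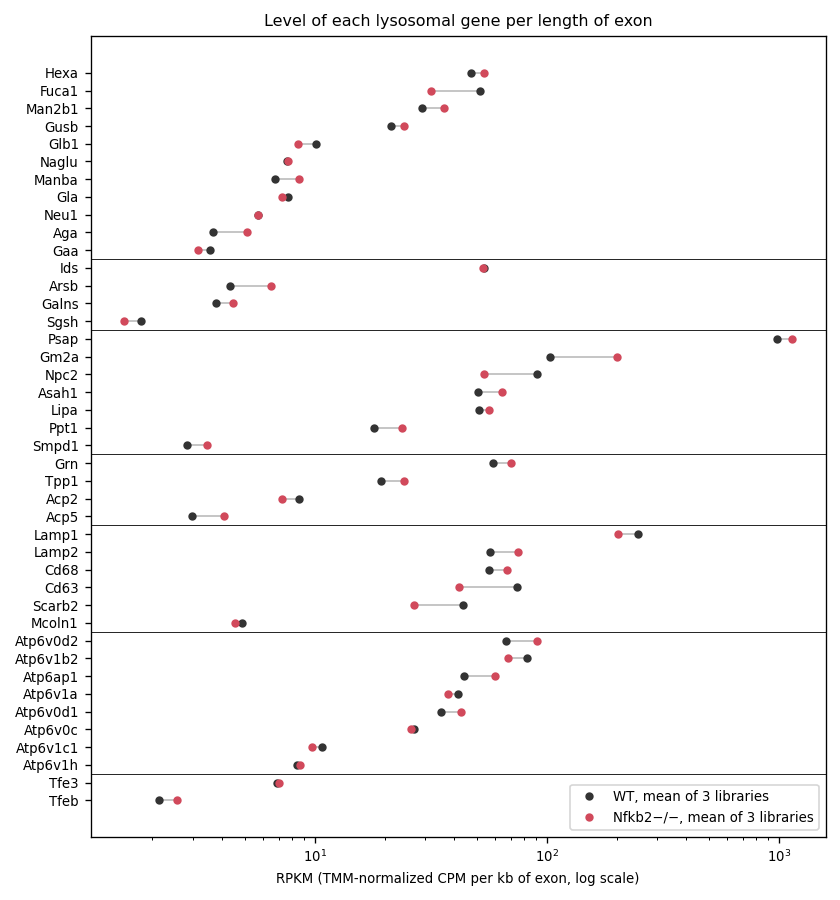
Mean RPKM (CPM per kilobase of exon, log scale) of each of the 42 lysosomal genes, grouped by role, in WT (black) and Nfkb2-/- (red) BMDCs, each the mean of 3 libraries. Psap lies highest and Sgsh lowest, and Cd63, Scarb2, Npc2 and Fuca1 lie further left in Nfkb2-/- than in WT.

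None of the 42 genes passed the threshold for differential expression in edgeR's quasi-likelihood test, set at a fold change over 1.2 in either direction with the adjusted p-value below 0.05, while 248 of all 21849 genes did (1.14%). The p-values were adjusted over all genes tested. At an unadjusted p under 0.05 the count was 5 of the 42 (11.9%), against 17.1% of all genes, of which Cd63, Scarb2, Npc2 and Fuca1 had lower and Atp6ap1 higher estimates in Nfkb2-/- BMDCs. DESeq2 called 3 of the 42 genes, Cd63, Scarb2 and Npc2, all lower, a share of 7.14% against 8.14% of all genes, and limma voom called 0. With edgeR the same 3 genes were called when WT replicate 2 was left out (7.14%, against 5.87% of all genes). Without WT replicate 3 edgeR called 0 of them, against 1.27% of all genes. The median log2 fold change of the 42 genes was 0.16, beside 0.08 over all genes. It was -0.08 without WT replicate 3 and 0.15 without Nfkb2-/- replicate 1. Estimates were above 0 for 25 genes and below 0 for 17.

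In 12 of the 42 genes the WT and Nfkb2-/- libraries did not overlap. All Nfkb2-/- libraries were above all WT libraries for 5 genes, Gusb, Smpd1, Gm2a, Atp6v0d1 and Atp6ap1 (11.9%, against 12.7% of all genes). All were below for 7, Glb1, Fuca1, Npc2, Acp2, Lamp1, Cd63 and Scarb2 (16.7%, against 12%). The higher count was 10 without WT replicate 2 (23.8%, against 20.6%), 12 without Nfkb2-/- replicate 1 (28.6%, against 23.2%) and 3 without Nfkb2-/- replicate 2 (7.14%, against 14.8%). Without WT replicate 3 it stayed at 5 (11.9%, against 17.8%), but the lower count became 15 (35.7%, against 17.2%), with Gla, Naglu, Gaa, Sgsh, Lipa, Cd68, Atp6v1b2 and Atp6v1c1 added to the 7. With total counts in place of TMM the higher count was 8 (19.0%, against 15.2% of all genes) and the lower count 4 (9.52%, against 8.77%), the latter Glb1, Npc2, Cd63 and Scarb2, and the median over all genes then moved to 0.17. With no filter except 1 count in 1 library, 1 gene was higher (2.38%, against 5.27%) and 7 were lower (16.7%, against 6.63%), with the median over all genes at 0.60.

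**Figure D2:**
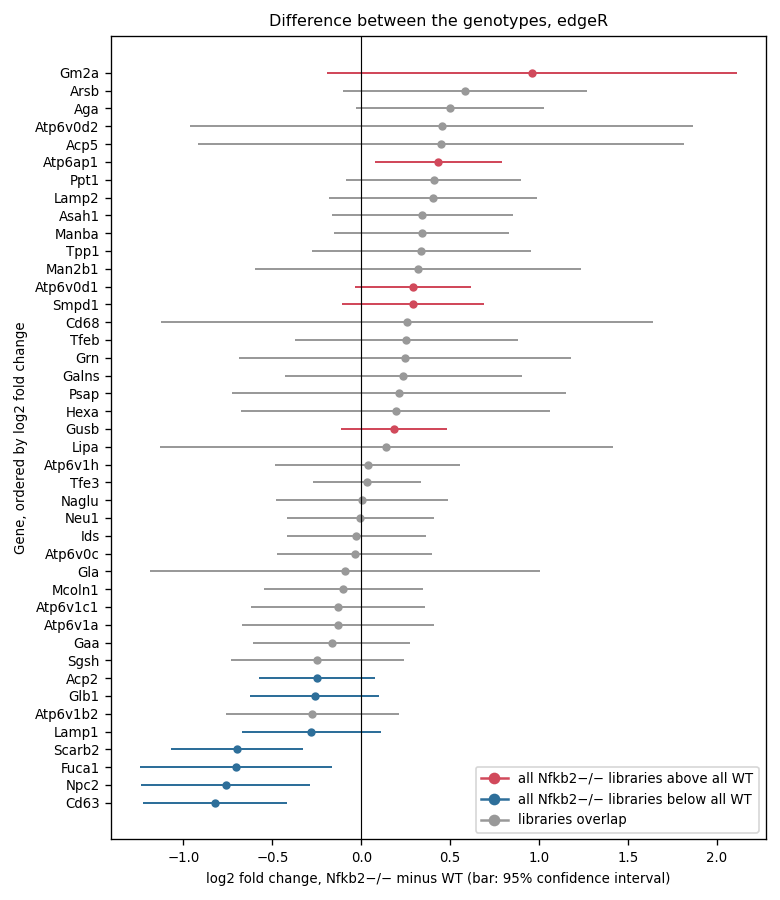
Log2 fold change between Nfkb2-/- and WT BMDCs (edgeR, 3 libraries per genotype) for the 42 genes in order of the estimate, with the 95% confidence interval as a bar. The intervals of Cd63, Npc2, Fuca1 and Scarb2 lie below 0 and that of Atp6ap1 above 0, before adjustment for multiple tests, and the widest belong to genes that were low in WT replicate 3.

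Among the membrane proteins, 3 of 6 were lower in every Nfkb2-/- library than in any WT library (50%, against 12% of all genes). In this group 0 were higher without overlap, and 2 of the 3 lower genes had the smallest p-values of the whole list. Cd63 (ENSMUSG00000025351, GRCm38 chr10:128900989-128912822, plus strand), a tetraspanin of late endosomes, lysosomes and secreted vesicles, measured 294, 220 and 306 CPM in WT and 150, 150 and 163 CPM in Nfkb2-/- libraries. The lowest WT library, replicate 2, was still above the highest Nfkb2-/- library, and the Nfkb2-/- libraries lay close together. Averages were 273 ± 46.5 CPM in WT (SD, n = 3) and 154 ± 7.28 CPM in Nfkb2-/- BMDCs (SD, n = 3), with a log2 fold change of -0.82 (SE 0.17) and an adjusted p of 0.0717 (edgeR), 0.000817 (DESeq2) and 0.0196 (edgeR without WT replicate 2). Over all 13 alternatives its adjusted p ranged from 0.000817 to 0.310, and the estimate without Nfkb2-/- replicate 1 was -0.81. A processed pseudogene, Cd63-ps, carried counts equal to 9.24% of those of Cd63, and how reads were split between them is not given in the sources used here.

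Scarb2 (ENSMUSG00000029426, chr5:92441314-92506833, minus strand), the membrane protein that carries glucocerebrosidase to the lysosome, measured 269, 237 and 315 CPM in WT and 164, 175 and 168 CPM in Nfkb2-/- libraries. Again WT replicate 2 was the lowest WT library and the groups did not overlap. The log2 fold change was -0.70 (SE 0.16), with an adjusted p of 0.0879 (edgeR), 0.00211 (DESeq2) and 0.0387 (edgeR without WT replicate 2) and a range from 0.00211 to 0.320 over the alternatives. Lamp1 (ENSMUSG00000031447, chr8:13159161-13175338, plus strand), whose promoter window held 4 CACGTG matches, measured 758, 592 and 629 CPM in WT and 509, 566 and 554 CPM in Nfkb2-/- libraries. These groups touched more closely, with WT replicate 1 alone clearly above the rest, and the estimate of -0.28 (95% interval -0.67 to 0.11) missed the threshold at an adjusted p of 0.439 (edgeR). Lamp2, its paralog needed for chaperone-mediated autophagy, had an estimate of 0.40 and spread widely in both genotypes, from 423 to 620 CPM in WT and from 514 to 837 CPM in Nfkb2-/- libraries. Mcoln1, the calcium channel of the lysosomal membrane, overlapped between the genotypes at 30.5 to 41.5 CPM in WT and 30.5 to 40.9 CPM in Nfkb2-/- libraries.

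**Figure D3:**
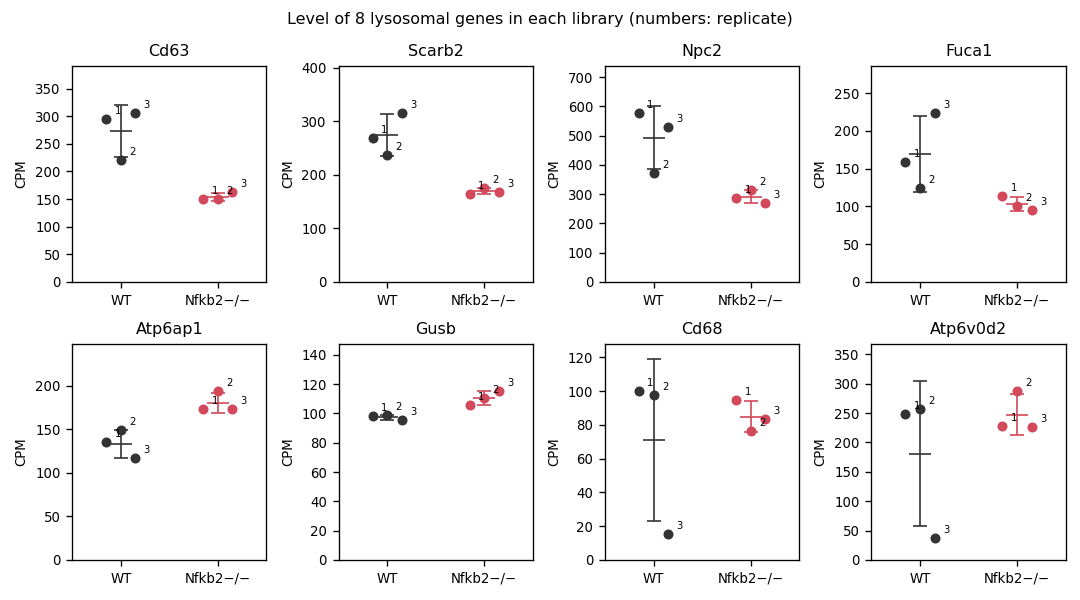
CPM of 8 lysosomal genes in each WT (black) and Nfkb2-/- (red) library, with the replicate number beside each point and the mean and SD of 3 libraries as a line and bar; each vertical axis starts at 0. Cd63, Scarb2, Npc2 and Fuca1 are lower in all Nfkb2-/- libraries, Atp6ap1 and Gusb are higher in all, and for Cd68 and Atp6v0d2 a single low library, WT replicate 3, sets the WT mean.

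Of the 7 lipid enzymes and cofactors, 1 was lower in all Nfkb2-/- libraries (14.3%, against 12% of all genes) and 2 were higher (28.6%, against 12.7%). Npc2 (ENSMUSG00000021242, chr12:84754562-84773152, minus strand), the soluble protein that binds cholesterol and hands it to the membrane protein Npc1, measured 577, 372 and 531 CPM in WT and 288, 315 and 270 CPM in Nfkb2-/- libraries. All WT libraries were higher, WT replicate 2 by the least. Its log2 fold change was -0.76 (SE 0.20), with an adjusted p of 0.121 (edgeR), 0.0115 (DESeq2) and 0.0287 (edgeR without WT replicate 2) and a range from 0.0115 to 0.397 over the alternatives. Gm2a measured 438, 695 and 147 CPM in WT and 709, 898 and 880 CPM in Nfkb2-/- libraries. All Nfkb2-/- libraries were higher, but WT replicate 2 came within a few percent of Nfkb2-/- replicate 1, and with DESeq2's size factors in edgeR the groups overlapped. Its log2 fold change was the largest of the list at 0.96 (95% interval -0.19 to 2.11, adjusted p = 0.379, edgeR), and it was 0.55 without WT replicate 3.

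Psap, the most abundant gene of the list, measured 3104, 3790 and 1218 CPM in WT and 2610, 3355 and 3431 CPM in Nfkb2-/- libraries. Only WT replicate 3 was outside the range of the others, and the estimate of 0.21 (95% interval -0.72 to 1.15) became -0.13 without it. Lipa, the acid lipase that frees cholesterol from its esters, had the same pattern, with 91.9 CPM in WT replicate 3 against 320 to 493 CPM in the other 5 libraries. Ppt1, which removes palmitate from proteins, measured 66.0, 82.8 and 48.8 CPM in WT and 79.5, 91.0 and 91.4 CPM in Nfkb2-/- libraries, with an estimate of 0.41 (adjusted p = 0.382, edgeR). The groups overlapped through WT replicate 2, and a neighbour on the opposite strand, Cap1, overlaps 129 bases of Ppt1 exons and carried 602% of its counts. Smpd1, acid sphingomyelinase, was low, at 8.99 to 9.95 CPM in WT and 10.6 to 13.1 CPM in Nfkb2-/- libraries, with no overlap and an estimate of 0.29. Asah1, acid ceramidase, had an estimate of 0.34 and overlapped.

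The 11 genes grouped as glycosidases act on the sugars of glycoproteins, glycolipids and glycosaminoglycans, Aga at the link between asparagine and sugar. Of these, 2 were lower without overlap (18.2%, against 12% of all genes) and 1 higher (9.09%, against 12.7%), and their median log2 fold change was 0.00. Fuca1 (ENSMUSG00000028673, chr4:135920735-135940311, plus strand), the fucosidase, measured 158, 125 and 224 CPM in WT and 114, 101 and 95.7 CPM in Nfkb2-/- libraries. WT replicate 3, low in many other lysosomal genes, was the highest library here, and the groups were separate by the margin between WT replicate 2 and Nfkb2-/- replicate 1. The log2 fold change was -0.71 (SE 0.23, adjusted p = 0.180, edgeR), and it was -0.45 (adjusted p = 0.251) without WT replicate 3. Glb1, β-galactosidase, measured 29.5, 30.6 and 31.4 CPM in WT and 21.8, 27.6 and 26.8 CPM in Nfkb2-/- libraries. The WT libraries lay within a narrow band above the others, with an estimate of -0.26 (adjusted p = 0.437, edgeR), and Tmppe, on the same strand, overlaps 165 bases of Glb1 exons and carried 46.9% of its counts. Gusb, β-glucuronidase, showed the opposite order with little spread, from 95.5 to 98.7 CPM in WT and from 106 to 115 CPM in Nfkb2-/- libraries (estimate 0.18).

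Aga, which cleaves the link between asparagine and sugar, measured 9.84, 8.68 and 6.78 CPM in WT and 9.39, 12.6 and 13.8 CPM in Nfkb2-/- libraries. Nfkb2-/- replicate 1 lay within the WT range, and the estimate was 0.50 (adjusted p = 0.318, edgeR). Hexa, the hexosaminidase subunit that acts on GM2 ganglioside and the glycosidase with the highest RPKM over all libraries (Fuca1 was above it in WT, at 51.5 against 47.1 RPKM), measured 102, 136 and 43.5 CPM in WT and 101, 108 and 113 CPM in Nfkb2-/- libraries. Apart from WT replicate 3 the libraries of the genotypes were mixed, and the estimate turned from 0.19 to -0.15 without that library. Man2b1, α-mannosidase, was at 99.0 CPM in WT replicate 3 and at 280 to 319 CPM in the other 5 libraries. Manba, β-mannosidase, had an estimate of 0.34, while Gaa, which degrades glycogen, was at -0.17, Gla, α-galactosidase, at -0.09, the sialidase Neu1 at -0.01 and Naglu at 0.00, and all 5 overlapped between the genotypes.

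The 4 sulfatases, which remove sulfate from glycosaminoglycans, overlapped between the genotypes throughout. Arsb measured 25.5, 36.9 and 15.7 CPM in WT and 36.5, 39.9 and 40.8 CPM in Nfkb2-/- libraries, with an estimate of 0.58 (95% interval -0.10 to 1.27, adjusted p = 0.369, edgeR). WT replicate 2 and Nfkb2-/- replicate 1 were level, and the other WT libraries lay below. Ids, iduronate sulfatase and the sulfatase with the highest RPKM, measured 286, 254 and 286 CPM in WT and 224, 301 and 283 CPM in Nfkb2-/- libraries. Its estimate was -0.03 (95% interval -0.41 to 0.36), and Nfkb2-/- replicate 1 was the lowest library. Galns, at 6.61 to 13.3 CPM in WT and 9.43 to 13.5 CPM in Nfkb2-/- libraries, had an estimate of 0.24, and Sgsh, at 6.26 to 9.42 CPM and 6.23 to 7.12 CPM, one of -0.25.

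In the group of the peptidase, acid phosphatases and progranulin, Acp2 was the gene without overlap, 1 of 4 (25% lower, against 12% of all genes). Acp2, the lysosomal acid phosphatase, measured 46.5, 43.6 and 43.2 CPM in WT and 35.3, 40.9 and 35.9 CPM in Nfkb2-/- libraries, with an estimate of -0.25 (adjusted p = 0.412, edgeR). The distance between the genotypes was smallest at Nfkb2-/- replicate 2, and Ddb2, on the opposite strand, overlaps 441 bases of Acp2 exons and carried 17.1% of its counts. Grn, the precursor of the granulins and the gene of this group with the highest RPKM, measured 226, 299 and 88.1 CPM in WT and 216, 253 and 260 CPM in Nfkb2-/- libraries. All libraries other than WT replicate 3 lay in one range, and the estimate changed from 0.25 to -0.11 without it. Acp5, the tartrate-resistant acid phosphatase of osteoclasts and macrophages, was at 1.41 CPM in WT replicate 3 and at 6.72 to 9.79 CPM in the other 5 libraries. Tpp1, the tripeptidyl peptidase, was at 61.8 CPM in WT replicate 3 and at 109 to 130 CPM elsewhere, with an estimate of 0.34.

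The V-ATPase consists of a membrane ring that carries protons, a cytosolic head that splits ATP and a stalk between them. Of its 8 measured parts, 2 were higher in all Nfkb2-/- libraries (25%, against 12.7% of all genes) and 0 were lower in all. Atp6ap1 (ENSMUSG00000019087, chrX:74297097-74304721, plus strand), an accessory protein needed for assembly of the pump, measured 135, 149 and 117 CPM in WT and 174, 194 and 174 CPM in Nfkb2-/- libraries. The highest WT library, replicate 2, was below all Nfkb2-/- libraries. Averages were 134 ± 16.0 CPM in WT (SD, n = 3) and 180 ± 11.6 CPM in Nfkb2-/- BMDCs (SD, n = 3), with a log2 fold change of 0.43 (SE 0.15, adjusted p = 0.203, edgeR) and a range of the adjusted p from 0.102 to 0.662 over the alternatives. Atp6v0d1, the ubiquitous form of the subunit that links ring and stalk, measured 66.6, 59.6 and 62.1 CPM in WT and 69.9, 79.6 and 80.8 CPM in Nfkb2-/- libraries. Nfkb2-/- replicate 1 was only slightly above WT replicate 1, and the estimate was 0.29 (adjusted p = 0.338, edgeR).

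Atp6v0d2, the form of the same subunit that is enriched in osteoclasts and macrophages, had the highest level of the pump per length over all libraries, at 66.6 RPKM in WT and 91.1 RPKM in Nfkb2-/- BMDCs, although Atp6v1b2 was above it in WT at 82.5 RPKM (68.2 RPKM in Nfkb2-/-). It measured 249, 256 and 38.2 CPM in WT and 229, 287 and 227 CPM in Nfkb2-/- libraries. WT replicate 3 was far below all others, and the estimate of 0.45 (95% interval -0.96 to 1.86) became -0.02 without it. The other parts overlapped between the genotypes: the head subunits Atp6v1a and Atp6v1b2 had estimates of -0.13 and -0.27, the stalk subunits Atp6v1c1 and Atp6v1h -0.13 and 0.04, and the ring subunit Atp6v0c -0.04. Nfkb2-/- replicate 1 was the lowest library for Atp6v1a, Atp6v1b2, Atp6v1c1 and Atp6v1h, and without it the estimate of Atp6v1a was 0.03 and that of Atp6v1h 0.23.

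The mRNAs of the transcription factors were low, and neither passed the threshold. Tfe3 measured 64.5, 65.5 and 60.4 CPM in WT and 65.6, 66.5 and 62.6 CPM in Nfkb2-/- libraries, with a log2 fold change of 0.03 (95% interval -0.26 to 0.33, adjusted p = 0.921, edgeR). The groups overlapped, and the libraries of both lay within a few CPM. Tfeb measured 13.3, 15.2 and 7.71 CPM in WT and 16.3, 14.0 and 12.9 CPM in Nfkb2-/- libraries, with an estimate of 0.25 (95% interval -0.37 to 0.88) that was 0.02 without WT replicate 3. On the RPKM scale the mean level of Tfe3 was 6.85 in WT and 7.01 in Nfkb2-/- BMDCs, above that of Tfeb at 2.13 and 2.54. Neither value says where in the cell the proteins were.

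Libraries of one genotype differed too. WT replicate 3 was the lowest of the 6 libraries for 24 of the 42 genes (57.1%, against 25% of all genes), and it was under 0.5 times each of the other WT libraries for 10 (23.8%, against 11.6%). These 10, named after their values were seen, were Gm2a, Man2b1, Acp5, Atp6v0d2, Grn, Psap, Hexa, Cd68, Lipa and Gla, from 5 of the 7 role groups. Cd68, a heavily glycosylated membrane protein used as a macrophage marker, measured 99.9, 97.6 and 15.4 CPM in WT and 95.0, 76.4 and 83.2 CPM in Nfkb2-/- libraries. Across the list, WT replicate 3 had a median of 0.726 times the mean of the other WT libraries, beside 1.03 over the 9573 genes at or above the lowest mean of the list.

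Not all lysosomal genes were low in that library. Fuca1, Glb1, Cd63 and Scarb2 had their highest value of all 6 libraries in WT replicate 3, so that for these genes it widened the distance between the genotypes, and 3 of the 4 smallest p-values of the list belonged to them. Without it the estimates of Cd63 and Scarb2 were -0.73 and -0.58, with adjusted p-values of 0.106 and 0.115 (edgeR). The median coefficient of variation of the 42 genes was 20.0% in WT and 12.4% in Nfkb2-/- libraries, beside 15.7% and 12.6% over the 9573 genes. The macrophage markers were low in WT replicate 3 as well, but the 10 low genes were chosen for being low there, so their dip was set by that choice. Between WT replicates 1 and 2 these genes went both ways, as with Lipa (493 and 451 CPM) and Gm2a (438 and 695 CPM). In the Nfkb2-/- libraries the summed macrophage level lay between that of WT replicate 3 and those of the other WT libraries. The part of the markers in the lysosomal values was not tested.

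**Figure D4:**
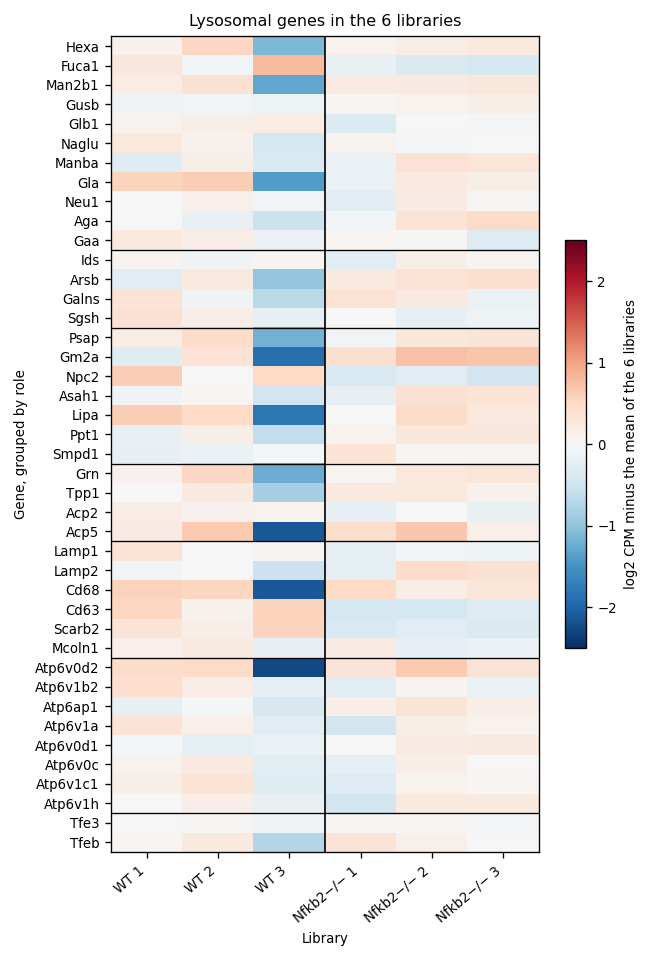
Log2 CPM of the 42 lysosomal genes in each of the 6 libraries, minus the mean of the gene over the libraries (blue, below the mean; red, above), with role groups divided by horizontal lines and the genotypes by a vertical line. The column of WT replicate 3 holds the strongest blue, while Fuca1, Cd63 and Scarb2 are red there and blue in all Nfkb2-/- libraries.

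**Figure D5:**
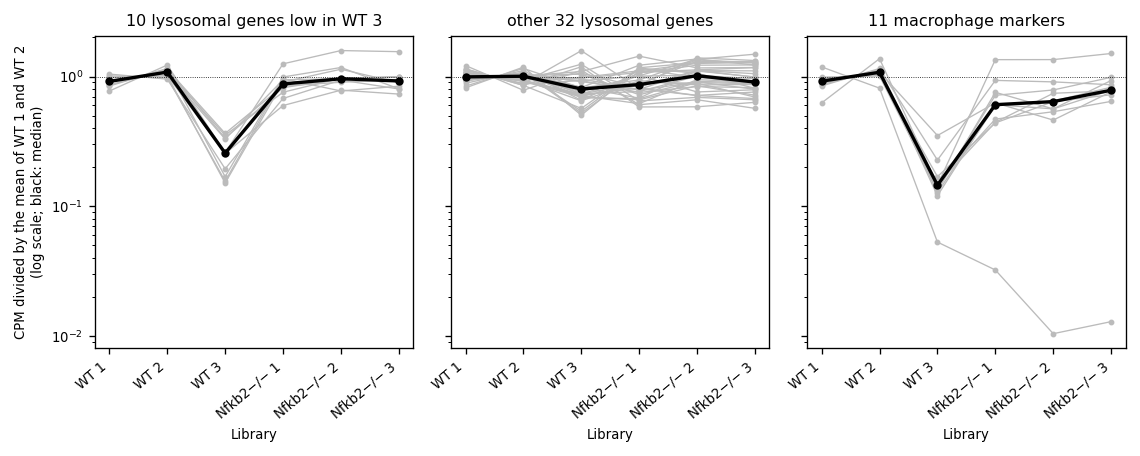
CPM in each library divided by the mean of WT replicates 1 and 2 (log scale) for the 10 lysosomal genes chosen because they were low in WT replicate 3, for the other 32 and for the 11 macrophage markers; grey lines are genes and the black line their median. The low genes and the markers both dip at WT replicate 3, and the marker that stays lowest in the Nfkb2-/- libraries is Apoe.

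Of 32 other lysosomal genes, edgeR called 0, with 4 higher and 2 lower at an unadjusted p under 0.05 (18.8%, against 17.1% of all genes). DESeq2 called 2 higher and 1 lower (9.38%, against 8.14%), and limma voom 0 higher and 1 lower. Without overlap, 6 were higher (18.8%, against 12.7%) and 3 lower (9.38%, against 12%). Galc, galactosylceramidase, measured 422, 255 and 462 CPM in WT and 140, 173 and 137 CPM in Nfkb2-/- libraries. WT replicate 2 was again the lowest WT library, without overlap, and the log2 fold change of -1.34 (SE 0.25) fell just short of the threshold at an adjusted p of 0.0559 (edgeR), against 6.4e-05 with DESeq2. In the other direction, Pla2g15, a lysosomal phospholipase, measured 46.8, 64.0 and 65.0 CPM in WT and 107, 100 and 94.7 CPM in Nfkb2-/- libraries (log2 fold change 0.78, adjusted p = 0.0826, edgeR).

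Of 14 other V-ATPase subunits, 0 were called with edgeR and 1 was higher at an unadjusted p under 0.05 (7.14%, against 17.1% of all genes). DESeq2 called 1 higher (7.14%, against 8.14%) and limma voom 0. Atp6v0a2, a membrane subunit of the pump in the Golgi and endosomes, measured 43.3, 66.0 and 42 CPM in WT and 92.1, 93.6 and 101 CPM in Nfkb2-/- libraries, without overlap (log2 fold change 0.92, adjusted p = 0.0861, edgeR). Next by p-value were Atp6v0e2, at no more than 1.12 CPM in any library, and Atp6v1e1, with an estimate of 0.26. Of 16 regulators and relatives of Tfeb and Tfe3, edgeR called 0, with 2 lower at an unadjusted p under 0.05 (12.5%, against 17.1% of all genes). DESeq2 called 2 lower (12.5%, against 8.14%) and limma voom 0. Rptor, the subunit that brings substrates to the mTOR complex, measured 246, 194 and 294 CPM in WT and 147, 129 and 138 CPM in Nfkb2-/- libraries (log2 fold change -0.83, adjusted p = 0.0862, edgeR). Flcn, folliculin, measured 20.1, 20.9 and 17.9 CPM in WT and 13.6, 13.9 and 14.6 CPM in Nfkb2-/- libraries (log2 fold change -0.48, adjusted p = 0.163, edgeR). In both the genotypes did not overlap, whereas Rraga, a small GTPase that brings mTOR to the lysosome, overlapped at 23.6 to 28.3 CPM in WT and 25.1 to 42.3 CPM in Nfkb2-/- libraries.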

How the data were processed

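RNA-seq of unstimulated BMDCs was analysed, with 3 WT and 3 Nfkb2-/- libraries grouped by the sample labels. The authors deposited whole-number counts of reads per Ensembl gene for each library, without normalization, and a joined table with the same values, which was not used. The submitters' processing notes name HISAT2, without a version, and GRCm38 (mm10). The counting tool, annotation and use of strand are not given in the sources used here, so that counts of overlapping genes and pseudogenes are uncertain.

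Names, positions and exon lengths came from GENCODE annotation of GRCm38. The exon length of a gene was that of all its annotated exons merged, so RPKM ranks between genes also depend on the annotation. Genes with a name and at least 50 counts over the 6 libraries were tested, and IDs without a name, 1.01% to 1.75% of the counts of a library, stayed out. The tools were edgeR 4.0.16, limma 3.58.1 and DESeq2 1.42.0 in R 4.3.3. After TMM scaling, the genotype was tested by glmQLFTest on a glmQLFit model of edgeR with no other covariate, with Benjamini-Hochberg adjustment over all genes. DESeq2, which the study used, was an alternative here. The common dispersion was 0.219. A standard error is the log2 fold change divided by the square root of its F statistic. Exact permutation tests of 3 libraries against 3 cannot go below 0.1 and were not used. The code was tested on counts simulated with a lower dispersion than that of these libraries, which checks the code and not the power to call genes here.

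The 42 genes and the other lists were chosen with earlier results of these data known. Values in every library are given for the 12 genes with the smallest p-value, the gene with the highest RPKM of each role group, Tfeb, Tfe3 and Nfkb2, and other genes of the lists were to be named only where called or among the 3 smallest p-values of a list. Some genes that this rule allows are not reported here. Ranges or values of further members, Gusb and Cd68 among them, and the overlapping neighbours were chosen after their values were seen. The 13 alternatives comprised each of the 6 libraries left out in turn, limma voom, DESeq2, the size factors of DESeq2 used in edgeR, library sizes from total counts in place of TMM, filterByExpr, a filter of only 1 count in 1 library, and the replicate number as a block.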

Additional observations from a re-analysis of the deposited data

How the results depend on the processing

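The result that 0 of the 42 genes were called rested on the tool and on WT replicate 2: it was 3 with DESeq2 and 0 to 3 with a library left out, 3 of them without WT replicate 2 and 0 without each other library. The count over all genes, 248, was 1779 with DESeq2, 488 with limma voom, 397 with filterByExpr, 1625 with no filter except 1 count in 1 library and 0 to 1248 with a library left out. It was 1248 without WT replicate 2, 270 without WT replicate 3 and 0 without WT replicate 1 or any of the Nfkb2-/- replicates. With the replicate block it was 0, but libraries with the same number did not deviate together (correlations 0.11, 0.09 and -0.04), so the numbers were not taken to pair them. Of the genes without overlap, 5 higher and 7 lower, the counts were 8 and 4 without TMM (15.2% and 8.77% of all genes), 1 higher with no filter (5.27%), and 3 to 12 higher and 7 to 15 lower with a library left out. The higher count was 10 without WT replicate 2, 12 without Nfkb2-/- replicate 1 and 3 without Nfkb2-/- replicate 2, and the lower count 15 without WT replicate 3. The median log2 fold change was -0.078 to 0.22 with a library left out. The median of all genes moved from 0.08 to 0.17 without TMM and to 0.60 with no filter, so estimates under these settings are relative to that shift. Except where an alternative leaves out a library or a filter, the cause was not tested.

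Of the 42 estimates, 17 changed sign under some alternative, and none of those 17 genes was called under any. Naglu was -0.013 with DESeq2 and with its size factors in edgeR and -0.078 with no filter, Gla 0.11 with limma voom and with the replicate block, and Atp6v1h -0.011 and Tfe3 -0.047 with no filter. Without TMM, Neu1 was 0.063, Ids 0.051 and Atp6v0c 0.028. With a library left out the estimates ranged from -0.50 to 0.19 for Gla, -0.28 to 0.027 for Atp6v1a, -0.15 to 0.11 for Neu1, -0.16 to 0.071 for Atp6v0c, -0.29 to 0.012 for Atp6v1c1, -0.15 to 0.56 for Hexa, -0.044 to 0.61 for Man2b1, -0.17 to 0.16 for Naglu, -0.14 to 0.080 for Ids, -0.13 to 0.53 for Psap, -0.31 to 0.49 for Lipa, -0.012 to 0.95 for Acp5, -0.11 to 0.63 for Grn, -0.22 to 0.59 for Cd68, -0.025 to 0.79 for Atp6v0d2, -0.097 to 0.23 for Atp6v1h and -0.020 to 0.062 for Tfe3. Without WT replicate 3 alone, 12 of the 42 changed sign. The other 25 genes kept their direction under all 13 alternatives. Strand, pseudogenes and overlapping neighbours could not be resolved from the deposited counts, and 3 libraries per genotype leave the intervals wide.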
